A study of Homo sapiens with 6 samples.

Results

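Chromosome 19 carries the densest collection of zinc finger genes in the human genome, and their level and change were read out here from the transcriptome of HCT116 cells, a human colorectal carcinoma line. The members were the protein-coding genes of chromosome 19 named ZNF plus a number, with or without a final letter, a rule that uses no measured value. It took 246 of the 1472 protein-coding genes of the chromosome and of the 58735 genes listed, and 238 of the 246 are annotated in the table as C2H2 zinc finger transcription factors. Of the 246 members, 83 lie on the short arm and 163 on the long arm.

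The study set 3 RNA-seq libraries of wild-type HCT116 cells that had received a control transfection (CTR) against 3 libraries of the same cells given miR-8485 mimics at 50 nM, to ask how the transcriptome responds to the miRNA. Cells were collected 48 h after transfection, and the supplementary methods of the study describe the replicates as independent and biological. A mimic is a synthetic copy of a mature miRNA. The sequence and the dose of the control are not given in the sources used here, and 1 cell line and 1 dose were used.

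C2H2 zinc finger proteins hold arrays of small zinc-binding loops, each of which contacts a few bases of DNA, so that a long array can read a long sequence. Many carry a KRAB box near the N-terminus, which recruits the co-repressor TRIM28 and the histone methyltransferase SETDB1, and a well-known task of this family is the silencing of transposable elements. The genes on chromosome 19 lie in tandem clusters that grew by repeated duplication, and many are transcribed at a low level.

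A miRNA pairs with the 3′ UTR of a transcript mostly through its seed, bases 2 to 8, and the mimic is shown here with these bases in capitals. The sites below it are the stretches of the 3′ UTR of ZNF264, ZNF562, ZNF557 and ZNF428 with the most overlapping copies of TGTGTGT, the reverse complement of the seed, in capitals. ZNF264 and ZNF562 were downregulated members, whereas ZNF557 and ZNF428 did not pass the test although their 3′ UTRs hold 9 and 20 copies in all. The sequence of the mimic is that given in the supplementary methods of the study, and the sites were read from GRCh38 with the GENCODE release 44 annotation, 5′ to 3′ on the strand of the gene.
miR-8485 mimic: cACACACAcacacguau
ZNF264, chr19:57213959-57213987, plus strand: tttttgttTGTGTGTGTGTGTaatttgag
ZNF562, chr19:9650404-9650432, minus strand: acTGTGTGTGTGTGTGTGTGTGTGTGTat
ZNF557, chr19:7087699-7087727, plus strand: agagTGTGTGTGTGTGTGTGTGTGTttgg
ZNF428, chr19:43607370-43607398, minus strand: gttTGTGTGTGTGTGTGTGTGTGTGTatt

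The values were FPKM, that is fragments scaled by gene length and by the total of the library. The 6 libraries held 17473874 to 18480047 fragments on listed genes. Of the markers of colorectal epithelium, EPCAM, CDH1, KRT8, KRT18, KRT19 and CDX2 were expressed in every library, whereas VIL1 and CDH17 were near 0 and KRT20 reached at most 2.56 FPKM. The summed level of the epithelial markers was 2614 to 2839 FPKM in CTR and 1754 to 1840 in miR-8485, and that of 11 markers of blood cells, fibroblasts and endothelium was 5.46 to 5.72 and 9.13 to 9.18, most of it from COL1A1 and ACTA2, with CD3E and DCN at 0. The lower epithelial sum came from KRT8, KRT18 and KRT19, whereas CDX2 (15.5 to 16.4 FPKM in CTR and 27 to 29.4 in miR-8485) and KRT20 (0.509 to 0.841 and 1.31 to 2.56) were higher in miR-8485. In bulk RNA a change in the share of cells and a change in RNA per cell cannot be told apart, and the part of these shifts in the results was not tested.

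The zinc finger genes were low. The median member had a mean of 0.591 FPKM over the 6 libraries, against 1.51 for all protein-coding genes, and the highest had 31.1 FPKM. A mean of at least 1 FPKM was reached by 99 members, which are the members tested. Another 61 lay between 0.1 and 1 FPKM, 32 were below 0.1 FPKM and 54 were listed at 0 in every library. At this depth a count of 0 allows up to 3 fragments, which for those 54 genes corresponds to 0.0152 to 0.0936 FPKM depending on gene length, a limit that covers counting error only. Of the ZNF genes on other chromosomes, 174 of 263 reached a mean of 1 FPKM and 27 were listed at 0.

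Levels differed along the chromosome. The arms were separated at the widest stretch without the start of a protein-coding gene, 24.0 to 29.2 Mb, and a new cluster was begun wherever the starts of neighbouring members lay more than 1 Mb apart. This gave 4 clusters on the short arm, 5 on the long arm and 11 scattered members. Short arm cluster 4, at 19.7 to 24.1 Mb, had the largest share of members listed at 0, 19 of 37, and 8 that reached 1 FPKM. Long arm cluster 2, at 36.2 to 37.8 Mb, had the smallest share at 1 FPKM or more, 5 of 26, and 9 at 0, although it holds ZNF146, the most abundant member of all. At the other end of the scale, 10 of 15 members of short arm cluster 2 (7.1 to 9.8 Mb) and 30 of 59 members of long arm cluster 5 (55.5 to 58.5 Mb) reached 1 FPKM. On the short arm 25 of 83 members were at 0 and on the long arm 29 of 163.

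**Figure D1:**
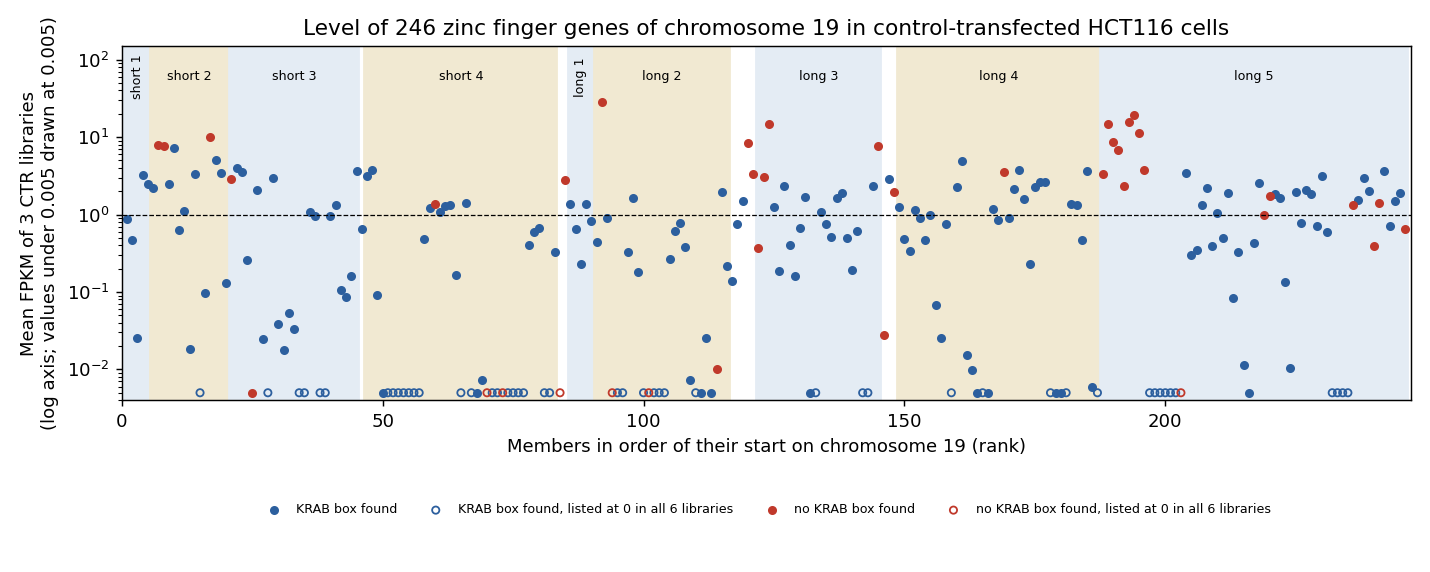
The mean FPKM of the 3 CTR libraries (log axis) is plotted for the 246 members in order of their start on chromosome 19, with blue points for members in which a KRAB box was found, red points for the others, open points for genes listed at 0 in all 6 libraries, shaded bands for the clusters and a dashed line at 1 FPKM. The highest points are red, and the open points crowd into short arm cluster 4, where 19 of 37 members were at 0, and long arm cluster 2, where 9 of 26 were.

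The members of highest level shared a protein feature that the choice of members did not use. A KRAB box was found in the reference protein of 207 members and not in 39. All 9 members with a mean of at least 10 FPKM lacked it, as did 13 of the 17 members with at least 5 FPKM. The median level was 0.489 FPKM with a KRAB box and 2.53 FPKM without. Of the members listed at 0, 48 had a KRAB box and 6 did not. The transcripts of the 2 kinds also differed in base composition, with a median GC content of 41.9% with the box and 60.2% without. The number of C2H2 fingers found per protein ranged from 0 to 36 with a median of 12.

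The most abundant member was ZNF146, whose protein consists almost wholly of zinc fingers, 10 as counted here. Its FPKM, given here and for the genes described after it in the order of the replicates, was 28.9, 29.1 and 27.2 in CTR and 33.2, 34.4 and 34 in miR-8485. Every miR-8485 library lay above every CTR library, and the gene was upregulated by 0.25 ± 0.05 on the log2 scale (SE, n = 3 per group, limma with Benjamini-Hochberg adjustment, adjusted p = 0.0021). ZNF581 followed with 19.1 ± 1.85 FPKM in CTR and 23.7 ± 0.794 in miR-8485 (SD, n = 3 each), a log2 fold change of 0.31 ± 0.07 (SE, limma, adjusted p = 0.0078). ZNF580 rose from 15.6 ± 1.27 to 18.2 ± 0.559 FPKM (SD, n = 3 each), by 0.23 ± 0.07 on the log2 scale (SE, limma, adjusted p = 0.0198). ZNF580 and ZNF581 are neighbours on the same strand. Exons of other genes on that strand overlap 15.6% of the exon length of ZNF580 and 24.9% of that of ZNF581. How reads of such stretches were counted is not given in the sources used here, so that their values may include or lack such reads. The call of ZNF146 was lost when the values were rescaled to TPM, and that of ZNF581 once the trend against gene length or GC content was removed. ZNF580 lost its call under all of these, with a log2 change of -0.035 after removal of the GC trend. Its call was also lost without CTR replicate 2 (adjusted p = 0.0624), without miR-8485 replicate 1 (0.0631) or without miR-8485 replicate 2 (0.0559). ZNF428, with FPKM of 16.9, 11.9 and 15.2 in CTR and 20.3, 16.1 and 16.6 in miR-8485, and ZNF579, with 15.7, 14.8 and 13.7 in CTR and 18.2, 15.7 and 16 in miR-8485, overlapped between the groups and did not pass the test (limma, adjusted p = 0.130 and 0.0919). Without CTR replicate 1, its highest control value, ZNF428 passed (limma, adjusted p = 0.0492).

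Between the groups, the zinc finger genes of chromosome 19 moved upwards more often than downwards. Of the 99 tested members, 38 were upregulated and 5 downregulated (limma on log2(FPKM + 0.1), Benjamini-Hochberg adjusted p under 0.05 over 12349 genes), where 29.1% of all tested genes were upregulated and 30.5% downregulated. The median log2 fold change was 0.24, against -0.0041 over all tested genes, and 74 members lay above 0 and 25 below. The libraries of the 2 groups did not overlap for 47 members that were higher in miR-8485 and 11 that were lower, a pattern found in 32.5% and 34% of all tested genes. The summed FPKM of the 246 members was 381 to 384 in the CTR libraries and 462 to 470 in the miR-8485 libraries. A filter on the mean can admit a gene through one group alone. Of the 92 members with a mean of at least 1 FPKM in both groups, 34 were upregulated and 5 downregulated. The shares of all genes under this stricter condition were not counted.

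How far the balance leans upwards depends on the scale. Rescaling the values to TPM moved the median of all tested genes to -0.12. On that scale 29 members were upregulated and 9 downregulated, so that 76.3% of the called members rose instead of 88.4%, while over all tested genes the share of calls that were rises went from 48.8% to 35.6%. The median of the members was then 0.13, which remained above that of all genes. With the trend against GC content removed, 41 members were upregulated and 4 downregulated, with a median of 0.27. Of all 12298 genes in that fit, 29.2% were upregulated and 30% downregulated.

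Other gene lists are set beside these counts, without a test of the lists. Of the tested members, 38.4% were upregulated and 5.1% downregulated. Of the 174 tested ZNF genes on other chromosomes, 60 (34.5%) were upregulated and 21 (12.1%) downregulated, with a median of 0.13. The 680 other tested protein-coding genes of chromosome 19 gave 287 (42.2%) and 146 (21.5%), with a median of 0.13. Of the 52 tested protein-coding genes that lie inside the clusters but are no members, 19 (36.5%) were upregulated and 12 (23.1%) downregulated, with a median of 0.09. On the TPM scale the ZNF genes on other chromosomes gave 46 upregulated and 36 downregulated with a median of 0.016, and the other genes of chromosome 19 gave 205 and 203 with a median of 0.015. With the GC trend removed, the former gave 55 and 22 with a median of 0.13 and the latter 218 and 205 with a median of 0.016.

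The arms are described side by side. On the long arm, 31 of 71 tested members (43.7%) were upregulated and 2 (2.8%) downregulated, with a median log2 fold change of 0.26. The short arm gave 7 (25%) and 3 (10.7%) of 28, with a median of 0.16. Over all tested genes the shares were 29.1% upregulated and 30.5% downregulated, so that rises were no more frequent on the short arm than over all genes. The difference between the arms was not tested. Measured from the mean of the CTR libraries, the median of the long arm members was 0.27 to 0.31 in the miR-8485 libraries and that of the short arm members 0.077 to 0.16, so that the ranges of the 3 libraries did not meet. The short arm count of upregulated members fell to 4 without miR-8485 replicate 3. On the TPM scale the short arm had 4 upregulated and 5 downregulated members and the long arm 25 and 4, so that the balance of calls on the short arm turned with the scale. On that scale 21.2% of all tested genes were upregulated and 38.3% downregulated. With the GC trend removed, 10 of 28 short arm members were upregulated and 3 downregulated, against 29.2% and 30% of all genes in that fit. The medians of the arms then lay close together, at 0.25 for the short arm and 0.28 for the long arm.

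**Figure D2:**
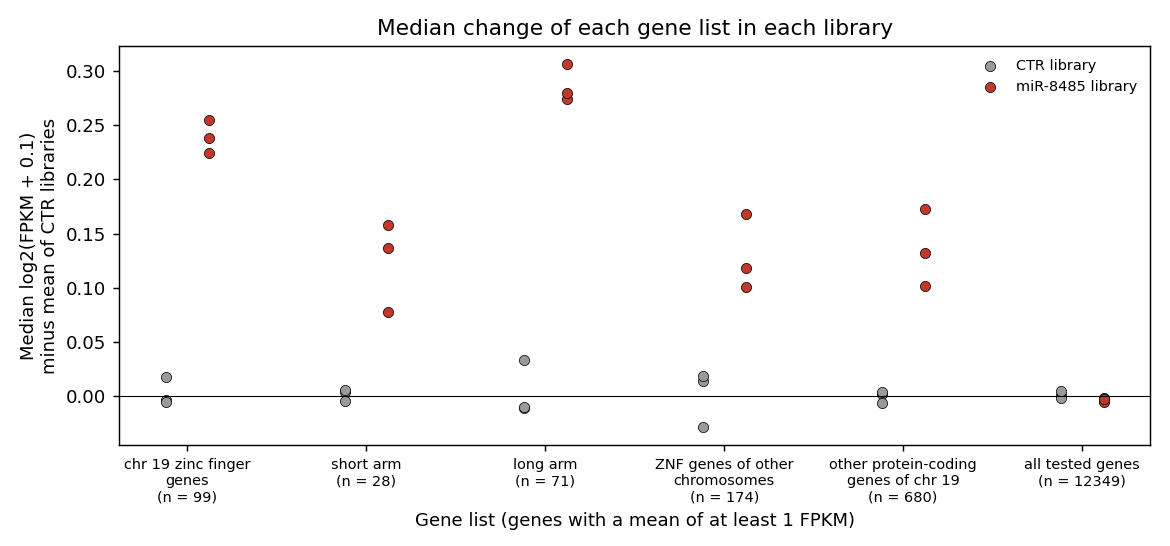
For each gene list, the median of log2(FPKM + 0.1) over the tested genes is plotted for each library less the mean of the 3 CTR libraries, with gray points for CTR and red points for miR-8485. The miR-8485 libraries lie at 0.22 to 0.25 for the chromosome 19 zinc finger genes, at 0.27 to 0.31 for the long arm and at 0.077 to 0.16 for the short arm. The ZNF genes of other chromosomes and the other protein-coding genes of chromosome 19 each lie at 0.10 to 0.17, whereas all tested genes stay near 0.

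Upregulated members were found in each of the 9 clusters, at shares of 20% to 60% of the tested members, against 29.1% of all tested genes. Genes named here by cluster were picked after their values were seen, unless they are among those described singly. Long arm cluster 5, the distal end of the chromosome, had the largest number, with 15 of 30 tested members upregulated and 1 downregulated, and a median log2 fold change of 0.32. Long arm cluster 4 (51.6 to 53.6 Mb) had 7 upregulated of 18 and none downregulated. Long arm cluster 3 (43.5 to 45.1 Mb) had 5 of 10, namely ZNF45, ZNF224, ZNF226, ZNF227 and ZNF296, with log2 fold changes of 0.46 to 0.62. In long arm cluster 2, 3 of 5 were upregulated, ZNF146, ZNF383 and ZNF566, and in long arm cluster 1 (34.7 to 35.0 Mb) 1 of 2, ZNF302.

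On the short arm, ZNF554 was upregulated in short arm cluster 1 (2.8 to 2.9 Mb, 3 tested), ZNF358 and ZNF561 in short arm cluster 2 (10 tested), ZNF443 and ZNF627 in short arm cluster 3 (11.5 to 12.6 Mb, 7 tested), and ZNF100 and ZNF708 in short arm cluster 4 (8 tested). Short arm cluster 4 was the single cluster with as many downregulated members as upregulated ones, ZNF14 and ZNF101, which lie next to each other at its telomeric end. None of the 6 tested scattered members was upregulated. With neighbours up to 2 Mb apart joined, the 9 clusters became 6, of which the most distal held 22 upregulated and 1 downregulated of 50 tested members.

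**Figure D3:**
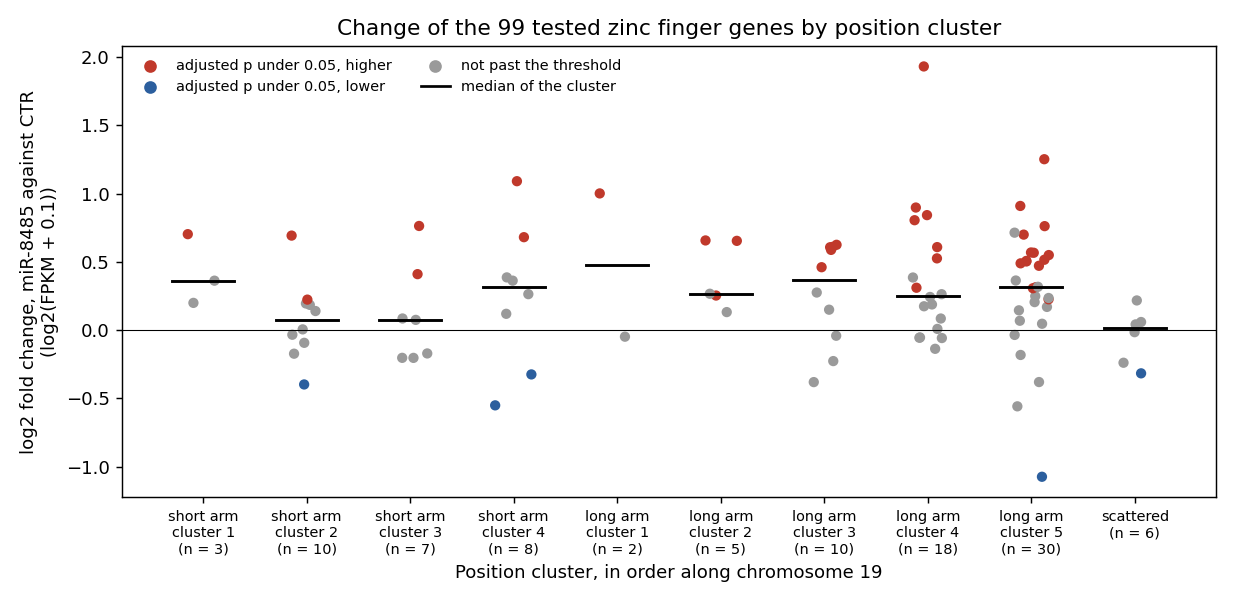
The log2 fold change of the 99 tested members (miR-8485 against CTR, on log2(FPKM + 0.1)) is plotted by position cluster, with red points for upregulated and blue points for downregulated members at an adjusted p under 0.05, gray points for the others and a bar at the median. Red points appear in all 9 clusters and are most numerous in long arm cluster 5, which has the most tested members and 15 upregulated of 30, and the lowest point is ZNF264 at -1.07.

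The largest rise was that of ZNF616, a KRAB zinc finger gene with 21 fingers in long arm cluster 4 (chr19:52113091-52139922, hg38). Its FPKM was 0.658, 0.746 and 0.847 in CTR and 2.60, 3.39 and 3.48 in miR-8485, from 58 to 75 fragments and 228 to 324 fragments. The groups lay far apart, with a log2 fold change of 1.93 ± 0.16 (SE, limma, adjusted p = 5.4e-05). ZNF587B in long arm cluster 5 (chr19:57819741-57846238) had 1.84, 1.94 and 1.68 FPKM in CTR and 4.32, 5.0 and 4.11 in miR-8485. All miR-8485 libraries were above all CTR libraries, with a log2 fold change of 1.25 ± 0.10 (SE, limma, adjusted p = 4.5e-05). ZNF708 in short arm cluster 4 (chr19:21291160-21329425) had 1.18, 1.34 and 1.37 FPKM in CTR and 3.08, 2.62 and 2.93 in miR-8485, without overlap, and a log2 fold change of 1.09 ± 0.11 (SE, limma, adjusted p = 0.00015). ZNF302 in long arm cluster 1 (chr19:34677639-34686397) had 1.19, 1.46 and 1.43 FPKM in CTR and 3.03, 2.52 and 2.91 in miR-8485. It rose by 1.0 ± 0.13 on the log2 scale (SE, limma, adjusted p = 0.00038).

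ZNF524 differed from the other large rises, since it has 4 fingers, no KRAB box and a high level. Its FPKM was 9.42, 8.29 and 8.17 in CTR and 16.6, 16 and 16.2 in miR-8485. The libraries did not overlap, and the log2 fold change was 0.91 ± 0.06 (SE, limma, adjusted p = 2.6e-05). Exons on the opposite strand overlap 18.9% of its exon length, and the strand setting of the counting is not given in the sources used here, so that reads of the 2 strands may not have been told apart.

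Besides ZNF616, 3 KRAB zinc finger genes among the 10 largest rises lie in long arm cluster 4, where 11 of 18 tested members did not pass the test. ZNF845, with 26 fingers, had 1.32, 1.47 and 1.27 FPKM in CTR and 2.83, 2.50 and 2.50 in miR-8485 (log2 fold change 0.90 ± 0.11 SE, limma, adjusted p = 0.00038). The neighbouring genes ZNF766 and ZNF480 lie head to tail on the plus strand. ZNF766 had 2.19, 2.0 and 2.59 FPKM in CTR and 3.85, 4.55 and 3.95 in miR-8485 (0.84 ± 0.11 SE, limma, adjusted p = 0.00057), and ZNF480 had 4.45, 5.18 and 5.11 in CTR and 8.14, 9.27 and 8.53 in miR-8485 (0.80 ± 0.08 SE, limma, adjusted p = 0.00012). For each of the 3 genes the lowest miR-8485 library was above the highest CTR library.

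ZNF627 on the short arm and ZNF211 on the long arm completed the 10 largest rises. ZNF627 had 3.70, 4.16 and 4.06 FPKM in CTR and 7.04, 6.78 and 6.59 in miR-8485 (0.76 ± 0.07 SE, limma, adjusted p = 6.3e-05), and ZNF211 had 2.08, 1.57 and 1.86 in CTR and 3.36, 3.08 and 3.07 in miR-8485 (0.76 ± 0.12 SE, limma, adjusted p = 0.0010). Neither overlapped between the groups. The other 28 upregulated members had log2 fold changes of 0.22 to 0.70.

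The largest fall was that of ZNF264 in long arm cluster 5 (chr19:57191500-57222846), a KRAB zinc finger gene with 13 fingers whose 3′ UTR holds 9 copies of the seed site, 4 of them overlapping in the stretch shown above. Its FPKM was 3.38, 3.52 and 3.39 in CTR and 1.51, 1.61 and 1.61 in miR-8485, from 763 to 797 and 339 to 385 fragments. The replicates of each group lay close together, and the gene fell by 1.07 ± 0.08 on the log2 scale (SE, limma, adjusted p = 3.8e-05). ZNF101 in short arm cluster 4 had 3.11, 2.97 and 3.39 FPKM in CTR and 2.04, 2.39 and 1.95 in miR-8485, and fell by 0.55 ± 0.10 (SE, limma, adjusted p = 0.0028). Its neighbour ZNF14 had 3.84, 3.60 and 3.73 FPKM in CTR and 2.78, 3.17 and 2.92 in miR-8485, and fell by 0.32 ± 0.08 (SE, limma, adjusted p = 0.0079). Neither ZNF101 nor ZNF14 has a copy of the site in the 3′ UTR.

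ZNF562 in short arm cluster 2 has 10 overlapping copies of the site in 1 run of TG repeats. Its FPKM was 3.29, 3.28 and 3.61 in CTR and 2.63, 2.49 and 2.53 in miR-8485, without overlap, and it fell by 0.40 ± 0.08 (SE, limma, adjusted p = 0.0031). Exons on the opposite strand overlap 50.7% of its exon length, so that its value may include reads of another gene. ZNF507, a scattered member without a KRAB box, had 2.85, 2.88 and 2.71 FPKM in CTR and 1.96, 2.44 and 2.34 in miR-8485. Its fall of 0.32 ± 0.10 (SE, limma, adjusted p = 0.0302) did not hold without a filter on level, with the trend against gene length or GC content removed, without any 1 of the CTR replicates or without miR-8485 replicate 1, where the adjusted p was 0.0523 to 0.147.

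**Figure D4:**
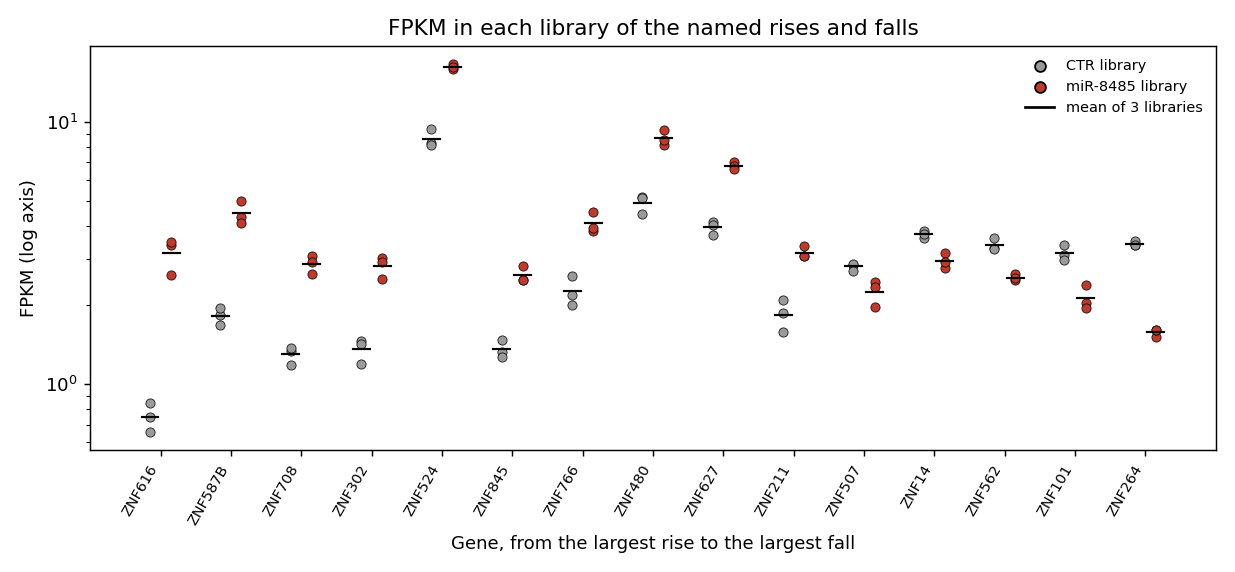
The FPKM of each library (log axis) is plotted for the 10 members with the largest rises and the 5 downregulated members, with gray points for CTR, red points for miR-8485 and a bar at the mean of 3 libraries. The points of the 2 groups do not overlap for any of these genes, from ZNF616 at 0.658 to 0.847 against 2.60 to 3.48 FPKM to ZNF264 at 3.38 to 3.52 against 1.51 to 1.61 FPKM.

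Several members are known for particular roles. ZNF91, a KRAB zinc finger protein that represses SVA and LINE-1 retrotransposons, was among the genes below a mean of 1 FPKM, with 0.485, 0.659 and 0.648 FPKM in CTR and 1.18, 1.35 and 1.31 in miR-8485. It was upregulated in the fit of the genes with a mean of at least 0.1 FPKM (log2 fold change 0.99 ± 0.17 SE, limma, adjusted p = 0.0034). ZNF274, which brings SETDB1 to the ends of zinc finger genes themselves, had 1.41, 1.59 and 1.65 FPKM in CTR and 2.25, 2.32 and 2.07 in miR-8485. It rose by 0.49 ± 0.11 on the log2 scale (SE, limma, adjusted p = 0.0069). ZNF224, a KRAB repressor of the aldolase A gene, had 1.13, 1.15 and 0.926 FPKM in CTR and 1.61, 1.66 and 1.83 in miR-8485 (0.62 ± 0.15 SE, limma, adjusted p = 0.0087). Exons on the opposite strand overlap 42.4% of the exon length of ZNF224. ZNF675, an inhibitor of TRAF6 signaling, had 0.597, 0.603 and 0.814 FPKM in CTR and 0.714, 1.01 and 1.16 in miR-8485, which overlapped and did not pass the test (limma, adjusted p = 0.167), though it did with voom on recovered fragments (adjusted p = 0.0358). The imprinted gene ZNF331 and the genes ZNF382 and ZNF420 were listed at 0 in every library.

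Few of the 61 members with a mean of 0.1 to 1 FPKM could be called. In the fit of all genes with a mean of at least 0.1 FPKM, 6 of them were upregulated and none downregulated, where 6.06% and 4.44% of the 8653 genes in this range were called (limma, Benjamini-Hochberg). The 6 were ZNF91, ZNF181, ZNF234, ZNF585B, ZNF765 and ZNF780B, which apart from ZNF91 are named because they passed. Their median log2 fold change, over all 61, was 0.31, against 0.09 for all genes in the range, and 44 of the 61 lay above 0. The libraries of 21 did not overlap and were higher in miR-8485 and those of 2 were lower, against 14.4% and 10% of all genes in the range. In the fit of recovered fragments with voom, 18 of 60 were upregulated and 2 downregulated, against 20% and 15% of all genes in the range fitted. The 54 members at 0 were not tested, and the 32 below 0.1 FPKM only in a fit without a filter. That fit held 192 members, those above 0.1 FPKM included, so that its counts do not describe the 32 alone. In it 39 members were upregulated and 4 downregulated, against 3417 and 3598 of all 31768 genes.

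The share of members with a seed site in the 3′ UTR was close to that of all protein-coding genes. Of 243 members with an annotated 3′ UTR, 60 (24.7%) held at least 1 copy of TGTGTGT on the coding strand, overlapping copies counted separately, against 25.4% of all protein-coding genes. The 3′ UTRs of the members were longer, with a median of 1717 bases against 1066. Among tested genes a site was found in 24.2% of members, against 28.9% of protein-coding genes. In the coding sequence the site was more common, in 26.8% of members against 10.8% of all. Of the 24 tested members with a site in the 3′ UTR, 7 were upregulated and 2 downregulated, with a median log2 fold change of 0.13, and of the 75 without, 31 and 3, with a median of 0.25. Over all tested protein-coding genes with a 3′ UTR, the 3081 with a site gave 604 upregulated and 1374 downregulated, with a median of -0.16. The 7585 without a site gave 2418 and 2219, with a median of 0.02. The members with a site thus had a higher median than all genes with a site, a difference that was not tested. The 25 tested members with a site in the coding sequence gave 12 upregulated and 2 downregulated, and the 74 without gave 26 and 3. Of all tested genes, with or without such a site, 29.1% were upregulated and 30.5% downregulated. The difference by coding site was not tested.

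At least 5 copies were found in the 3′ UTR of 5 tested members. ZNF264 and ZNF562 were downregulated, and ZNF557 (9 copies, log2 fold change 0.18 ± 0.09 SE), ZNF175 (6 copies, 0.01 ± 0.17) and ZNF428 (20 copies, 0.28 ± 0.14) did not pass the test (limma, adjusted p = 0.130, 0.969 and 0.130). ZNF557 and ZNF175 are named because of their sites. Among all tested genes, 59 of the 510 with at least 5 copies were upregulated and 308 downregulated, with a median of -0.36. Exons on the opposite strand overlap 32.1% of the exon length of ZNF428.

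Members with and without a KRAB box are set side by side. Of the 73 tested members with a KRAB box, 29 (39.7%) were upregulated and 4 (5.5%) downregulated, with a median log2 fold change of 0.24. The 26 without gave 9 (34.6%) and 1 (3.8%), with a median of 0.22. On other chromosomes, the 68 tested ZNF genes with a KRAB box gave 29 (42.6%) and 3 (4.4%) with a median of 0.21. The 106 without gave 31 (29.2%) and 18 (17.0%) with a median of 0.09. Over all tested genes the shares were 29.1% upregulated and 30.5% downregulated. None of these differences was tested.

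**Figure D5:**
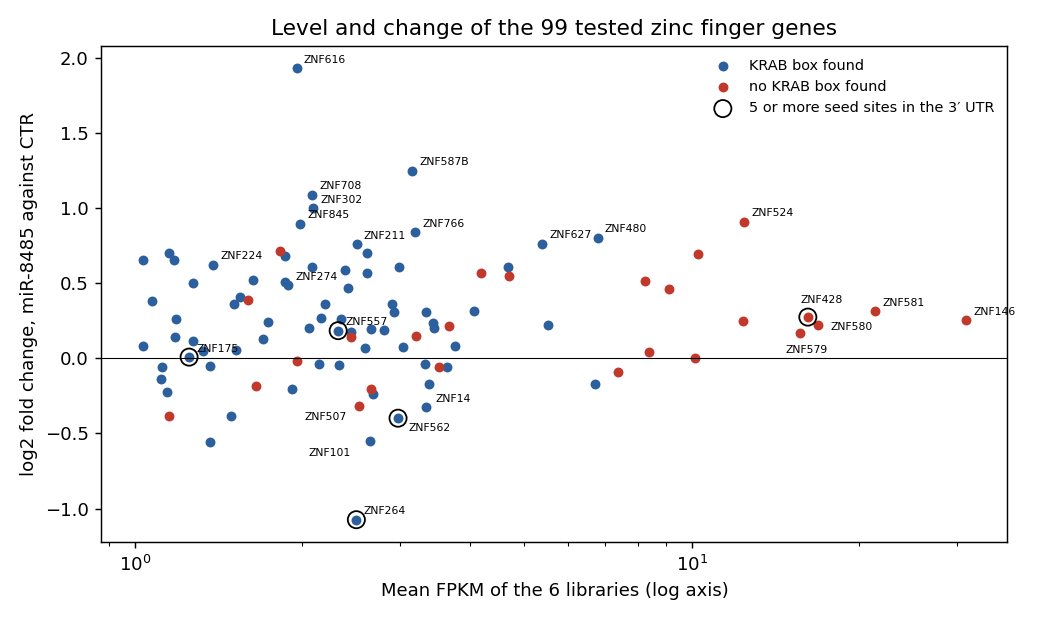
The log2 fold change of each of the 99 tested members is plotted against its mean FPKM over the 6 libraries (log axis), with blue points for members with a KRAB box, red points for the others and a ring around members with at least 5 seed sites in the 3′ UTR. Points above 0 outnumber those below, 74 to 25, at low and high levels, and of the 5 ringed genes ZNF264 and ZNF562 are the 2 that were downregulated.

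The genes for the proteins through which KRAB zinc fingers act moved both ways. Of 19 co-repressor genes, 3 (15.8%) were upregulated and 5 (26.3%) downregulated, against 29.1% and 30.5% of all tested genes. Their median log2 fold change of -0.018 turned positive with the length or GC trend removed or without miR-8485 replicate 1 (0.037, 0.024 and 0.0029). With the length trend removed 7 were upregulated and 5 downregulated, where all 12349 genes gave 3614 and 3703. With the GC trend removed the counts were 5 and 7, where all 12298 genes gave 3588 and 3685. TRIM28, the co-repressor bound by the KRAB box, had 231 ± 10.4 FPKM in CTR and 234 ± 4.66 in miR-8485 (SD, n = 3 each, log2 fold change 0.01 ± 0.05 SE, limma, adjusted p = 0.807). With the GC trend removed it passed the test as lower (-0.14, limma, adjusted p = 0.0468). SETDB1, which trimethylates lysine 9 of histone H3, had 3.50 ± 0.204 and 3.88 ± 0.0776 FPKM and did not pass the test (0.15 ± 0.07 SE, limma, adjusted p = 0.108), though it did with the length trend removed (0.22, adjusted p = 0.0227).

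The largest change in this pathway was in CBX1, which encodes the heterochromatin protein HP1 beta. Its FPKM was 64.8, 65.0 and 66.5 in CTR and 17.6, 16.8 and 15.9 in miR-8485, a fall of 1.96 ± 0.05 on the log2 scale (SE, limma, adjusted p = 8.7e-07). CBX3, for HP1 gamma, fell by 0.83 ± 0.04, from 75.6 ± 1.16 to 42.6 ± 1.08 FPKM (SD, n = 3 each, limma, adjusted p = 5.8e-06). The 3′ UTR of CBX3 holds 13 copies of the seed site, that of CBX1 holds 1 and that of ATF7IP, a gene that rose, holds 9. CBX5, for HP1 alpha, had 11.4 ± 0.536 and 12.3 ± 0.494 FPKM and did not pass the test (limma, adjusted p = 0.118), though it did with the length or GC trend removed (adjusted p = 0.00152 and 0.0148). Of the genes that maintain DNA methylation, UHRF1 fell by 0.53 ± 0.05 and DNMT1 by 0.46 ± 0.06 (SE, limma, adjusted p = 6.2e-05 and 0.00043). HDAC1, a histone deacetylase, fell by 0.18 ± 0.04 (SE, limma, adjusted p = 0.0051). CHD3, a remodeler of the NuRD complex, rose by 0.80 ± 0.06 and ATF7IP, the partner of SETDB1, by 0.58 ± 0.08 (SE, limma, adjusted p = 3.1e-05 and 0.00066). FAM208A, a subunit of the HUSH complex, rose by 0.18 ± 0.06 (SE, limma, adjusted p = 0.0379), a call that was lost without CTR replicate 2 or 3 and without any 1 of the miR-8485 replicates, where the adjusted p was 0.0554 to 0.125, without a filter on level (0.0780) and on the TPM scale (0.453, with a log2 fold change of 0.07).

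Duplicated genes can share reads. The transcripts of the members were compared with those of other genes named as zinc finger genes or their relatives, and with no others. Of the 246 members, 183 shared no 100-base word with those genes. Another 15, of which 6 were tested, shared more than 10% of their words. Exons of other genes overlap more than 10% of the exon length on the same strand for 13 tested members, among them ZNF587B with 10.9%, and on the opposite strand for 10. Among the upregulated members, those sharing more than 10% of their words were ZNF8 with 18.8%, ZNF443 with 14.9%, ZNF324B with 10.9% and ZNF552 with 10.5%, whose values are therefore less certain. ZNF616, ZNF708, ZNF264, ZNF101 and ZNF14 shared none with the genes compared.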

How the data were processed

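The 6 RNA-seq libraries of HCT116 cells, 3 CTR and 3 miR-8485, were grouped by their labels. The labels and methods state that the authors mapped reads to hg38 with HISAT2 2.0.5 and counted fragments with featureCounts 1.5.0-p3. The FPKM values deposited by the authors divide these counts by gene length and library total, with no further scaling. No column was left without a sample (0 columns).

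All values above 0 (100% in each library, within 0.05) came out as whole fragments. Genes with a mean of at least 1 FPKM were tested on log2(FPKM + 0.1) with limma 3.58.1 (R 4.3.3), moderated along a trend of variance with level. The test was two-sided, with Benjamini-Hochberg adjustment over all 12349 genes and a threshold of 0.05. A fold change on this scale understates that of low genes. A second fit took the 21002 genes with a mean of at least 0.1 FPKM. The test was also run on simulated data with 200 changed genes, far fewer than were called here. That run cannot give the error rate of the test in these data. Other steps used Python 3.11.15, numpy 2.4.6, pandas 2.3.3, biopython 1.88 and matplotlib 3.10.9.

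3′ UTRs and coding sequences came from the canonical transcripts of GENCODE release 44, matched by gene ID for 246 of 246 members. Exon overlaps were taken over the exons of all annotated transcripts of chromosome 19 genes in that release. C2H2 fingers were found by pattern and the KRAB box by a position weight score over 38 residues, above 0 bits, built from 287 windows. Of the 19049 proteins without a finger, 28 passed this score. Names followed a rule: the members past the threshold whose groups did not overlap, the 10 largest rises and up to 10 falls, the 5 highest members, 8 members of known role, and the co-repressor genes. The members and lists were chosen with earlier results of these data known. Alternatives were other pseudocounts, filters and scalings, removal of length and GC trends, eBayes without a trend, a replicate block, voom on recovered fragments and each library left out in turn.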

Additional observations from a re-analysis of the deposited data

How the results depend on the processing

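Across the alternatives run, the counts and medians kept their direction, except that the balance of calls on the short arm turned on the TPM scale and that the co-repressor genes changed in the sign of their median and, without the length trend, in the balance of their calls (7 upregulated and 5 downregulated). The members gave 11 upregulated and 0 downregulated at a mean of at least 5 FPKM (short arm 3 and 0, long arm 8 and 0). There 17 members were tested, and of all 6878 genes in that fit 2303 were upregulated and 2417 downregulated. On the TPM scale 9 members were downregulated (short arm 4 upregulated and 5 downregulated, long arm 4 downregulated), against 38.3% of all tested genes. Voom on recovered fragments, which tested 159 members, gave 64 upregulated and 8 downregulated (short arm 13 upregulated, long arm 51 and 5, members of 0.1 to 1 FPKM 18 and 2). Of all genes in the voom fit, 28.6% were upregulated and 28.8% downregulated. Without a variance trend 9 members were downregulated, 6 of them on the long arm, and 1 was downregulated on the long arm both without a filter on level and without the GC trend. The median log2 fold change of the members was 0.19 with a pseudocount of 1, 0.19 without a filter, 0.25 at a mean of at least 5 FPKM, 0.13 as TPM, 0.25 without the length trend, 0.27 without the GC trend and 0.27 with voom. That of the short arm was 0.11 with a pseudocount of 1, 0.17 with 0.01, 0.094 without a filter, 0.11 at a mean of at least 5 FPKM, 0.16 with median-of-ratios scaling, 0.056 as TPM, 0.20 without the length trend, 0.25 without the GC trend and 0.20 with voom. That of the long arm was 0.22 with a pseudocount of 1, 0.23 without a filter, 0.16 as TPM and 0.29 without the length trend. Leaving out 1 library at a time gave 32 to 40 upregulated and 4 to 6 downregulated members with medians of 0.22 to 0.26, 4 to 7 and 3 to 4 on the short arm with medians of 0.14 to 0.19, 28 to 33 and 1 to 3 on the long arm with medians of 0.25 to 0.28, and 4 to 5 upregulated members of 0.1 to 1 FPKM with 0 downregulated. The count of 4 on the short arm was without miR-8485 replicate 3, and that of 1 on the long arm without CTR replicate 1, 2 or 3 or miR-8485 replicate 1. The co-repressor genes gave 1 upregulated at a mean of at least 5 FPKM, 7 without the length trend and 5 without the GC trend, 2 to 3 upregulated and 5 to 6 downregulated with 1 library left out, and medians of -0.13 at a mean of at least 5 FPKM, -0.13 as TPM, 0.037 without the length trend, 0.024 without the GC trend and -0.030 to 0.0029 with 1 library left out. Of 696 values of 43 named genes, 15 changed sign. Without the GC trend these were ZNF579 (-0.023), ZNF580 (-0.035), HDAC2 (0.024), PPHLN1 (0.058) and TRIM28 (-0.14), without the length trend HDAC2 (0.037) and PPHLN1 (0.089), and as TPM CBX5 (-0.00020), CHD4 (-0.06), MPHOSPH8 (-0.10) and TRIM28 (-0.10). With 1 library left out, DAXX ranged from -0.038 to 0.0036, MPHOSPH8 from -0.023 to 0.052 and TRIM28 from -0.024 to 0.035. The cause of these shifts was not tested. With the group means taken out, samples of the same replicate number correlated at 0.067, 0.033 and -0.064, and not each best with its own number. Whether samples of the same number shared a batch is not given, and these correlations cannot decide it. With the number as a replicate block, 42 members were upregulated and 6 downregulated, 7 and 3 on the short arm and 35 and 3 on the long arm, with a median of 0.24, and 4 members of 0.1 to 1 FPKM were upregulated and 0 downregulated. ZNF428 and ZNF579 passed the test with the block, and ZNF428 also with voom. FAM208A lost its call with the block (adjusted p = 0.0702, limma). Depth limited the 32 members below 0.1 FPKM, which were tested only in the fit without a filter, and the 54 listed at 0, which were not tested.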
